A study of Sus scrofa with 8 samples.

Results

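The enzymes that make and convert steroid hormones were followed in the uterine endometrium of pregnant pigs of 2 breeds. The 10 genes were CYP19A1, CYP11A1, CYP17A1, STAR, HSD3B1, HSD17B1, HSD17B4, HSD17B10, HSD11B1 and HSD11B2. They were taken as every probeset (a group of short probes on an Affymetrix array that reports 1 transcript) carrying one of these symbols in the array's annotation or in the gene names of the study. This gave 17 of the 23999 probesets of the array that are not controls, 15 of them through the annotation. The other 2, both CYP19A1, carried no gene in the annotation and were named by the study alone. The names of the study were given to transcripts that had been selected for a breed difference in these same gilts, so the direction of such probesets is not independent evidence about the gene.

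The 8 arrays covered 4 Meishan gilts (M12, a prolific Chinese breed) and 4 Yorkshire gilts (Y12), each array holding the RNA of 1 gilt. All gilts were pregnant and on day 12 of gestation, after natural mating to boars of their own breed at the second or the third estrus, and all conceptuses had reached the filamentous stage. Tissue was taken from all areas of the lumen, so each sample held epithelium, glands, stroma and vessels, with any conceptus cells that adhered. No treatment was given, the age of the gilts was not given, and breed was the only comparison.

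Steroid hormones are built from cholesterol. STAR carries cholesterol into mitochondria, CYP11A1 cuts its side chain, HSD3B1 and CYP17A1 lead on to progesterone and the androgens, HSD17B1 activates estrone to estradiol, and aromatase, the product of CYP19A1, converts androgens to estrogens. In the pig, the elongating conceptus releases estrogen around this day of pregnancy as the signal that maintains the corpora lutea, while the endometrium is chiefly a target tissue that binds, converts and inactivates steroids. The pig genome holds several aromatase genes, and in the Sscrofa11.1 annotation CYP19A3, CYP19A1 and CYP19A2 follow one another, between GLDN and LOC106508998.

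Signals are given in the array's arbitrary units, after each array was centred on a common median. Breed means are geometric, and differences are on the log2 scale with the standard error (SE) from limma, a moderated linear model fitted to all probesets (n = 4 gilts per breed). A probeset was called at a Benjamini-Hochberg adjusted p under 0.1. No detection calls were used, and signals under 64 are treated here as close to the array's background. Levels of different probesets cannot be set against one another, because their probes bind with unlike strength.

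Of the 17 member probesets 1 was called, against 0.908% of all probesets tested (0.404% greater in Meishan, 0.504% greater in Yorkshire). It was a probeset named CYP19A1 by the study alone, greater in Yorkshire. Among the 15 named by the annotation 0 were called by limma, while 4 had an unadjusted p under 0.05, against 14.8% of all probesets (7.79% greater in Meishan, 6.96% greater in Yorkshire). Meishan and Yorkshire gilts were fully apart at 5 of the 17, against 10.1% of all probesets. At 3 of them the Meishan gilts were the greater, against 5.01% of all probesets, and at 2 the Yorkshire gilts, against 5.09%. Of these 5, 2 were the probesets named by the study alone, from a list selected for a breed difference in these gilts. Among the 15 named by the annotation the breeds were apart at 3 (2 greater in Meishan, 1 in Yorkshire). Only 5 probesets reached a signal of 64 in every gilt (the called probeset, HSD17B4, HSD17B10, HSD11B1 and HSD11B2), and 6 stayed under it in all 8.

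**Figure D1:**
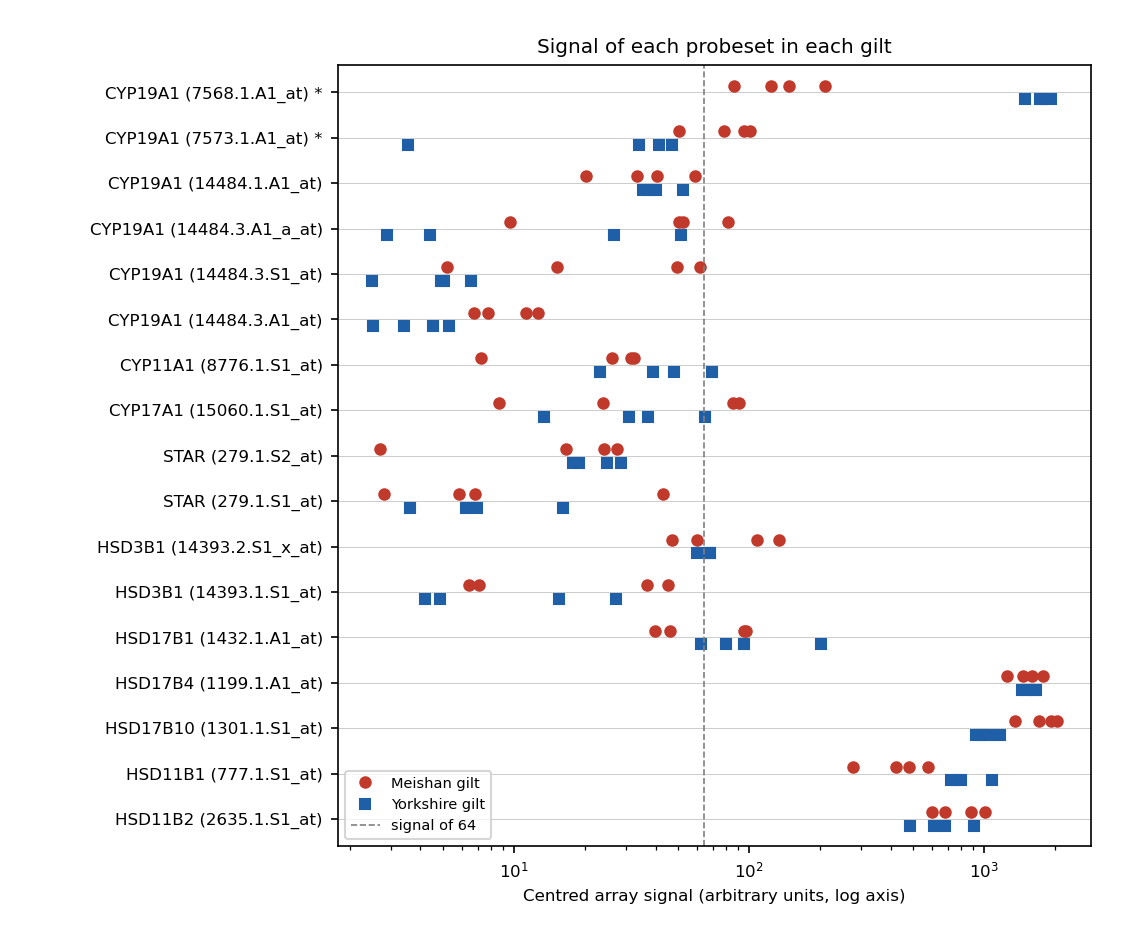
Centred signal (arbitrary units, log axis) of each of the 17 member probesets in each gilt, with Meishan gilts as red circles, Yorkshire gilts as blue squares and a dashed line at 64. An asterisk marks the 2 probesets named by the study alone, and the top one is where the breeds stand farthest apart, with the lowest Yorkshire gilt 7.14 times the highest Meishan gilt.

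The first steps of the pathway were at or near background in both breeds. STAR, the cholesterol carrier, had 2 probesets, both under 64 in all gilts. The first (279.1.S2_at) gave 27.3, 2.70, 24.1 and 16.6 in the Meishan gilts and 24.8, 17.8, 18.9 and 28.5 in the Yorkshire gilts. The second (279.1.S1_at) gave 5.83, 43.0, 2.80 and 6.83 in Meishan and 6.26, 16.2, 3.62 and 6.96 in Yorkshire. The breeds overlapped at both, and the differences, Meishan minus Yorkshire, were -0.75 (adjusted p = 0.663, limma) and 0.23 (adjusted p = 0.925, limma).

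CYP11A1, the side-chain cleavage enzyme that starts all steroid synthesis, read 32.4, 7.22, 31.4 and 26.2 in Meishan and 47.9, 23.2, 69.8 and 39.2 in Yorkshire. A single gilt reached 64, the breeds overlapped, and the difference of 1.00 toward Yorkshire (SE 0.55) was not called (adjusted p = 0.442, limma). HSD3B1, which makes progesterone from pregnenolone, had a brighter probeset (14393.2.S1_x_at) with 60.0, 47.1, 108 and 134 in Meishan and 68.5, 67.8, 59.8 and 68.0 in Yorkshire. Here the Yorkshire gilts lay close together inside the Meishan range, with a difference of 0.28 (adjusted p = 0.746, limma). The suffix of this probeset marks probes that can also bind similar transcripts, so related sequences may share its signal. The dimmer HSD3B1 probeset stayed between 4.20 and 45.1 and differed by 0.79 (adjusted p = 0.718, limma).

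CYP17A1, which turns progestins into androgens, had a lowest and a highest value of 8.61 and 90.3 among the Meishan gilts, and of 13.4 and 65.0 among the Yorkshire gilts. The breeds overlapped almost wholly (difference 0.17, adjusted p = 0.945, limma). HSD17B1 read 46.3, 95.6, 96.6 and 39.8 in Meishan and 95.5, 79.7, 202 and 62.2 in Yorkshire. Its difference of -0.62 (SE 0.45) was not called (adjusted p = 0.567, limma). Over these 5 genes of the route from cholesterol to estradiol, 14 of 56 values from 7 probesets reached 64 and 0 probesets were called, with 0 at an unadjusted p under 0.05. None was called under any alternative processing that was run. Missing the threshold does not show that the breeds are alike.

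The largest breed difference among the members lay at Ssc.7568.1.A1_at, a probeset that stands under CYP19A1 through the name list alone and not through the annotation. No probe sequence was used here, so whether its probes match CYP19A1, another aromatase gene or neither was not examined. Its signal was 148, 210, 86.5 and 124 in the Meishan gilts and 1928, 1496, 1762 and 1730 in the Yorkshire gilts. All Yorkshire gilts were far above all Meishan gilts, and the spread within a breed was small beside the gap: the highest gilt was 2.42 times the lowest in Meishan and 1.29 times in Yorkshire. The means of 135 and 1722 differed 12.8-fold, a log2 difference of 3.67 toward Yorkshire (SE 0.28, 95% interval 3.03 to 4.31, adjusted p = 0.00738, limma). By p it ranked 3 among all 23999 probesets. In whole tissue, fewer cells of a type and less RNA per cell cannot be told apart, which holds for every difference given here. Whether the probes bind the transcripts of both breeds equally was not tested, so a signal difference need not be a difference in RNA amount.

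The other 5 probesets under the name CYP19A1 were not called. Ssc.7573.1.A1_at, the other one named by the study alone, gave 101, 78.5, 50.3 and 95.4 in Meishan and 34.1, 3.54, 41.6 and 47.0 in Yorkshire. Here every Meishan gilt was above every Yorkshire gilt, the opposite order, with a difference of 1.83 toward Meishan (SE 0.80) that was not called (adjusted p = 0.339, limma).

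The 4 probesets that the array annotation gives to CYP19A1 were near background throughout, with 1 of 32 values reaching 64. Ssc.14484.3.A1_at read 11.2, 6.74, 7.75 and 12.6 in Meishan and 3.40, 5.32, 4.51 and 2.50 in Yorkshire. Ssc.14484.3.S1_at read 15.2, 5.20, 61.8 and 49.5 in Meishan and 5.04, 6.58, 2.48 and 4.88 in Yorkshire. The study also used the name CYP19A1 for this pair. The first separated the breeds and the second did not, and both leaned to Meishan, by 1.30 (SE 0.31, adjusted p = 0.138, limma) and 2.31 (SE 0.77, adjusted p = 0.228, limma). Ssc.14484.3.A1_a_at leaned to Meishan by 1.72 (adjusted p = 0.490, limma), and Ssc.14484.1.A1_at differed by -0.20 (adjusted p = 0.825, limma). Of the 4, 3 were greater in Meishan and 0 were called, with 2 at an unadjusted p under 0.05 and none called under any alternative. Dim probesets leaned to Meishan over the whole array. The median difference was 0.46 in the dimmest 10% of all probesets by signal and 0.31 in the next 10%. After quantile normalization these medians were 0.10 and 0.04. Ssc.14484.3.A1_at, Ssc.14484.3.S1_at, Ssc.14484.3.A1_a_at and Ssc.14484.1.A1_at then differed by 0.89, 1.99, 1.44 and -0.44.

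**Figure D2:**
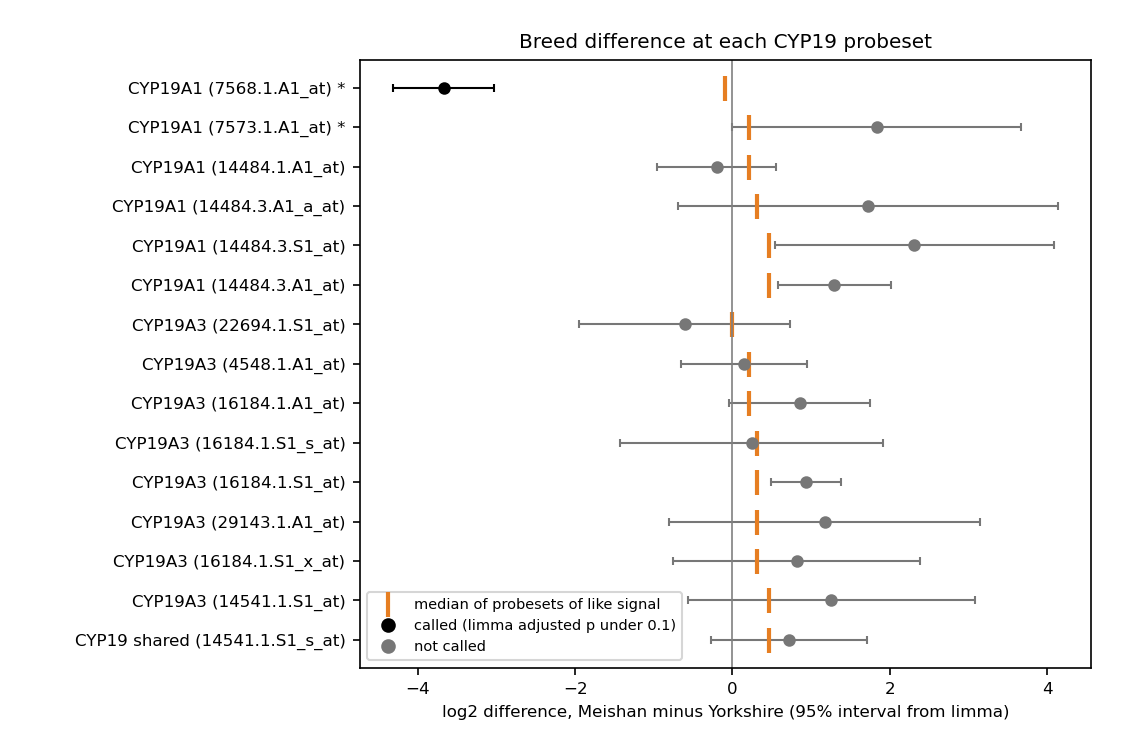
Log2 difference, Meishan minus Yorkshire, with its 95% interval from limma (n = 4 gilts per breed) for the 6 CYP19A1 probesets, the 8 CYP19A3 probesets and 1 shared by the aromatase genes, where black marks a called probeset and orange bars give the median of all probesets of like signal. An asterisk marks a CYP19A1 probeset named by the study alone. The called probeset lies at -3.67, and most of the others lie to the right of 0.

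Within each gilt, the log2 signal of Ssc.7568.1.A1_at was also set against that of each other probeset under the name. The breed gap in this quantity ran from 3.47 (Ssc.14484.1.A1_at) to 5.98 (Ssc.14484.3.S1_at), greater in Yorkshire in all 5 pairs. It is a description with no test, because Ssc.7568.1.A1_at already separated the breeds, owes its name to a list selected on these gilts, and was set mostly against signals near background.

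The array also covers CYP19A3, a neighbouring aromatase gene, with 8 probesets, which are not members and are given for comparison. The brightest, Ssc.22694.1.S1_at, gave 478, 66.5, 179 and 296 in Meishan and 363, 200, 283 and 439 in Yorkshire. The breeds overlapped, and the difference of -0.61 (SE 0.58) was not called (adjusted p = 0.676, limma). The other 7 lay between 2.64 and 101 and leaned to Meishan by 0.15 to 1.26, 6 of them also after quantile normalization, and 0 were called by limma (1 at an unadjusted p under 0.05). That one, Ssc.16184.1.S1_at, had every Meishan gilt (24.5 to 31.0) above every Yorkshire gilt (12.0 to 17.0), with a difference of 0.94 (SE 0.19, adjusted p = 0.106, limma), and was called under 3 of 15 alternatives. Without Meishan 1, Ssc.29143.1.A1_at and Ssc.16184.1.S1_x_at were called as well (adjusted p = 0.0909 and 0.0986, limma). A probeset shared by CYP19A1, CYP19A2 and CYP19A3 stayed between 2.01 and 8.40.

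Trophectoderm, the outer layer of the conceptus, is a known site of aromatase in the pig at this stage. Its markers were therefore read in the same arrays. Which of the aromatase genes is active there was not examined here. Of 19 listed markers 11 had a probeset and 8 had none. TFAP2C, a trophectoderm transcription factor, read 2.50, 5.12, 20.3 and 5.21 in Meishan and 26.2, 66.5, 54.8 and 71.1 in Yorkshire. Its breeds did not overlap, as at Ssc.7568.1.A1_at, with Yorkshire the greater at both, but it was near background and not called (difference -3.07, adjusted p = 0.105, limma). IFNG, which pig conceptuses secrete in large amounts at this stage, gave 14.2, 904, 304 and 114 in Meishan and 4604, 221, 6286 and 33.5 in Yorkshire. The Yorkshire gilts spanned 188-fold for IFNG and 1.29-fold for Ssc.7568.1.A1_at. TFAP2C and IFNG are 2 of the 11 measured markers, of which 4 leaned to Meishan, and TFAP2C was the only 1 without overlap at its brightest probeset. The source of the signal at Ssc.7568.1.A1_at was not tested.

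The summed signal of the 11 trophectoderm markers was 3626 to 4375 in Meishan and 3566 to 10133 in Yorkshire, and without IFNG 3322 to 4064 and 3344 to 4921. Such sums are weighted to the brightest probesets. Of the 11 genes 7 leaned to Yorkshire (8 after quantile normalization) and 0 were called, with 1 at an unadjusted p under 0.05. Markers of ovary and adrenal, tissues that make steroids for the circulation, summed to 1032 to 1249 in Meishan and 753 to 1103 in Yorkshire over 9 genes, of which 8 leaned to Meishan. Several of these genes also stand in the list of regulators. The part of conceptus cells in the values of Ssc.7568.1.A1_at was not tested.

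**Figure D3:**
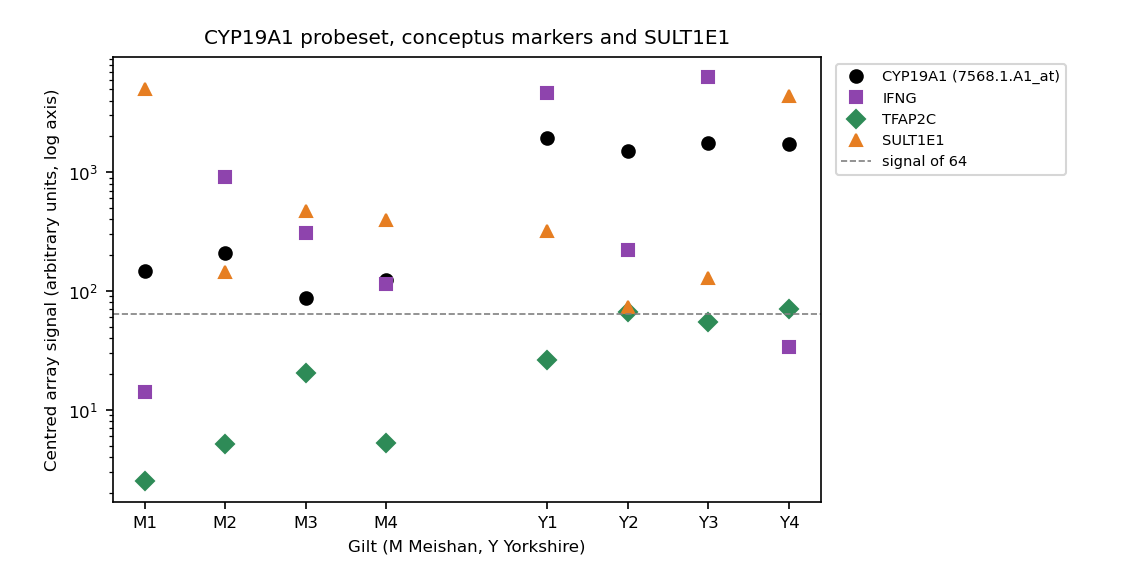
Centred signal (arbitrary units, log axis) of Ssc.7568.1.A1_at (named CYP19A1 by the study), of the conceptus markers IFNG and TFAP2C and of the estrogen sulfotransferase SULT1E1 in each gilt (M1 to M4 Meishan, Y1 to Y4 Yorkshire). The points of Ssc.7568.1.A1_at step up from 86.5 to 210 in Meishan to 1496 to 1928 in Yorkshire, TFAP2C also has every Yorkshire gilt higher (26.2 to 71.1 against 2.50 to 20.3), and IFNG and SULT1E1 overlap between breeds.

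HSD17B10 and HSD17B4, mitochondrial and peroxisomal enzymes that oxidise fatty acids and can also inactivate estradiol, reached 64 in every gilt. HSD17B10 read 2040, 1358, 1703 and 1921 in Meishan and 1043, 925, 1163 and 973 in Yorkshire. Every Meishan gilt was above every Yorkshire gilt, and the means of 1735 and 1022 differed 1.70-fold (log2 0.76, SE 0.19, 95% interval 0.32 to 1.21). With an adjusted p of 0.148 from limma it was not called, though it was under 4 of 17 alternatives. HSD17B4 read 1773, 1598, 1456 and 1245 in Meishan and 1656, 1642, 1449 and 1506 in Yorkshire. The breeds overlapped fully and the difference was -0.05 (SE 0.18), with a 95% interval of -0.46 to 0.35 (adjusted p = 0.918, limma).

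HSD11B1 and HSD11B2 run one reaction in opposite directions, HSD11B1 regenerating active cortisol from cortisone and HSD11B2 inactivating it. HSD11B1 read 577, 276, 422 and 478 in Meishan and 769, 1078, 794 and 725 in Yorkshire. The breeds did not overlap, and the Yorkshire mean of 831 was 1.96 times the Meishan mean of 423 (log2 0.97 toward Yorkshire, SE 0.27, 95% interval 0.36 to 1.58). It was not called (adjusted p = 0.171, limma), and it was called under 1 of 17 alternatives.

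HSD11B2 read 597, 1011, 876 and 679 in Meishan and 483, 683, 903 and 610 in Yorkshire, means of 774 and 653. The gilts overlapped and the difference of 0.25 toward Meishan (SE 0.26) was not called (adjusted p = 0.708, limma). The pair was then compared within each gilt. The log2 signal of HSD11B1 minus that of HSD11B2, which has no meaning as a level because it joins different probes, was -0.05, -1.87, -1.05 and -0.51 in Meishan and 0.67, 0.66, -0.19 and 0.25 in Yorkshire. Meishan 1 lay above the lowest Yorkshire gilt, so the breeds overlapped. The means of -0.87 (SD 0.78) and 0.35 (SD 0.41) differed by 1.22 toward Yorkshire, with p = 0.0571 in a two-sided exact permutation test whose smallest possible p is 0.0286. Without single gilts this difference ranged from 0.89 (without Meishan 2, p = 0.0857) to 1.49 (without Meishan 1, p = 0.0286), and p from 0.0286 to 0.114, in exact permutation tests over 35 assignments. Leaving out Meishan 1 removes the overlap. HSD11B1 alone already separated the breeds, so this test mostly restates its difference and is not separate evidence.

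**Figure D4:**
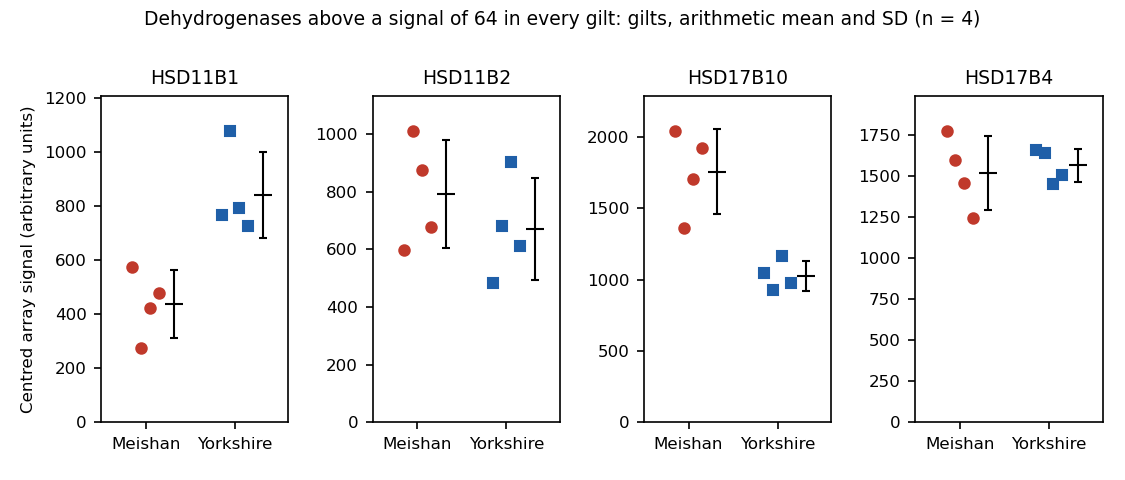
Centred signal (arbitrary units, linear axis from 0, own scale per gene) of the 4 dehydrogenases in each gilt, with the arithmetic mean and SD of each breed beside the points (n = 4). HSD11B1 separates with Yorkshire above (725 to 1078 against 276 to 577) and HSD17B10 with Meishan above (1358 to 2040 against 925 to 1163), while HSD11B2 and HSD17B4 overlap.

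Other genes of steroid supply, handling and response were taken from 7 lists of 102 genes, of which 60 had a probeset. Of their 102 probesets 1 was called, 0.980%, against 0.908% of all probesets, so the share was near that of the array as a whole. Read by the brightest probeset of each gene, 0 of the 60 genes were called, and 12 had an unadjusted p under 0.05 (9 greater in Meishan, 3 in Yorkshire), 20% against 14.8% of all probesets. The median difference of the 60 genes was 0.17, beside 0.02 for all probesets.

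The called probeset belongs to UGT2B31, one of the enzymes that tag steroids with glucuronic acid for excretion, and the study named it UGT2B17. Ssc.25317.1.S1_at gave 1093, 1068, 1900 and 1768 in Meishan and 393, 426, 471 and 231 in Yorkshire. The breeds did not overlap, and the difference was 1.94 toward Meishan (SE 0.31, adjusted p = 0.0588, limma). A second UGT2B31 probeset, Ssc.10441.1.S1_at, was not called and lay the other way (-0.30, adjusted p = 0.732, limma). The genes of this family are alike in sequence, so which of them each probeset reads is uncertain. The call was lost at a threshold of 0.05 and without any one of Meishan 3, Meishan 4, Yorkshire 1, Yorkshire 2 or Yorkshire 3, where the adjusted p was 0.140, 0.144, 0.130, 0.116 and 0.107 (limma).

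None of the 11 measured genes listed for inactivation was called by its brightest probeset, and 4 leaned to Meishan (5 after quantile normalization). The list is not limited to enzymes whose main substrates are steroids. HSD17B2, which oxidises estradiol to estrone, averaged 261 in Meishan and 514 in Yorkshire (difference -0.98, SE 0.43, adjusted p = 0.341, limma). AKR1A1, an aldehyde reductase, differed by 0.52 (adjusted p = 0.432, limma), and CYP3A29, a hepatic-type hydroxylase, by -1.07 (adjusted p = 0.436, limma). SULT1E1, which sulfates estrogens and was picked after its values were seen, read 5045, 144, 475 and 397 in Meishan and 319, 73.8, 130 and 4330 in Yorkshire. A single gilt of each breed stood far above the rest of its breed.

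Of 10 measured genes of cholesterol supply, 6 leaned to Meishan (7 after quantile normalization), 0 were called and 3 had an unadjusted p under 0.05. STARD10, a lipid transfer protein related to STAR, averaged 326 in Meishan and 124 in Yorkshire (difference 1.40, SE 0.40, adjusted p = 0.185, limma). SCP2, a sterol carrier, differed by 0.47 without overlap (adjusted p = 0.256, limma), and SCARB1, the receptor that takes up cholesterol from high-density lipoprotein, by -0.64 (adjusted p = 0.297, limma). The electron donors that the steroid cytochromes P450 need reached 64 in every gilt and overlapped between breeds at their brightest probesets. FDX1 differed by 0.17, POR by -0.18 and FDXR by -0.15, with 0 of 4 genes called or at an unadjusted p under 0.05. A dimmer FDXR probeset, Ssc.16934.2.S1_at, was greater in all Meishan gilts (difference 0.95, adjusted p = 0.196, limma). Of the other synthesis enzymes, SRD5A2 differed by 0.45 and HSD17B12 by -0.31, and 0 of 4 were called or at an unadjusted p under 0.05.

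The regulators of steroid genes leaned to Meishan in 12 of 15 genes (11 after quantile normalization), with a median of 0.57, 7 genes at an unadjusted p under 0.05 and 0 called. All 7 were greater in Meishan, as were 7.79% of all probesets at such a p. CREB1 and NR5A2, counted among the 7, also had dimmer probesets the other way (-0.31, and -0.55 and -0.36). NR5A2 had others the same way (0.54 and 0.34). Of the 7, FOXL2 (6.08 to 95.1 over all gilts) and GATA4 (1.75 to 63.1) were near background. They differed by 1.81 and 2.13, where all probesets of like signal had medians of 0.46 and 0.31 toward Meishan. After quantile normalization they differed by 1.54 and 1.79, beside medians of 0.10 and 0.04. NR5A1, the nuclear receptor that switches on steroid genes in gonad and adrenal, read 147, 109, 107 and 106 in Meishan and 77.0, 77.7, 76.2 and 69.7 in Yorkshire. These values were low but separated the breeds (difference 0.63, SE 0.18, adjusted p = 0.178, limma). A dimmer NR5A1 probeset, Ssc.30909.1.A1_at, lay the other way, at -0.65 (adjusted p = 0.483, limma). MC2R, the receptor for adrenocorticotropin, differed by 0.63 (adjusted p = 0.185, limma), and its second probeset by -0.18. PRKACA, the catalytic subunit of protein kinase A, differed by 0.52 (adjusted p = 0.234, limma).

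Among 6 receptors and binding proteins 3 leaned each way and 0 were called. PGR, the progesterone receptor, read 437, 268, 323 and 336 in Meishan and 495, 446, 468 and 579 in Yorkshire, with no overlap (difference -0.56, SE 0.20, adjusted p = 0.263, limma). SERPINA6, which carries cortisol in blood, differed by 1.59 (adjusted p = 0.588, limma). Yorkshire 4 read 1.85 there and the other Yorkshire gilts 70.3 to 91.9, and the difference fell as low as 0.21 under the alternatives. PGRMC1, a membrane progesterone-binding protein, differed by 0.23 (adjusted p = 0.604, limma). The 10 measured genes listed for estrogen response, not all of them established in the pig uterus, split 5 to 5. IGF1 differed by -0.52 without overlap (adjusted p = 0.229, limma). A dimmer IGF1 probeset lay the same way without overlap (-0.37, adjusted p = 0.386, limma), and another the other way (0.60, adjusted p = 0.587, limma). SPP1, the adhesion protein osteopontin, differed by -1.18 (adjusted p = 0.383, limma), and LTF by 1.65 (adjusted p = 0.419, limma). At LTF all Yorkshire gilts were under 64, with Yorkshire 2 at 2.74, and the difference fell as low as 0.67 under the alternatives.

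**Figure D5:**
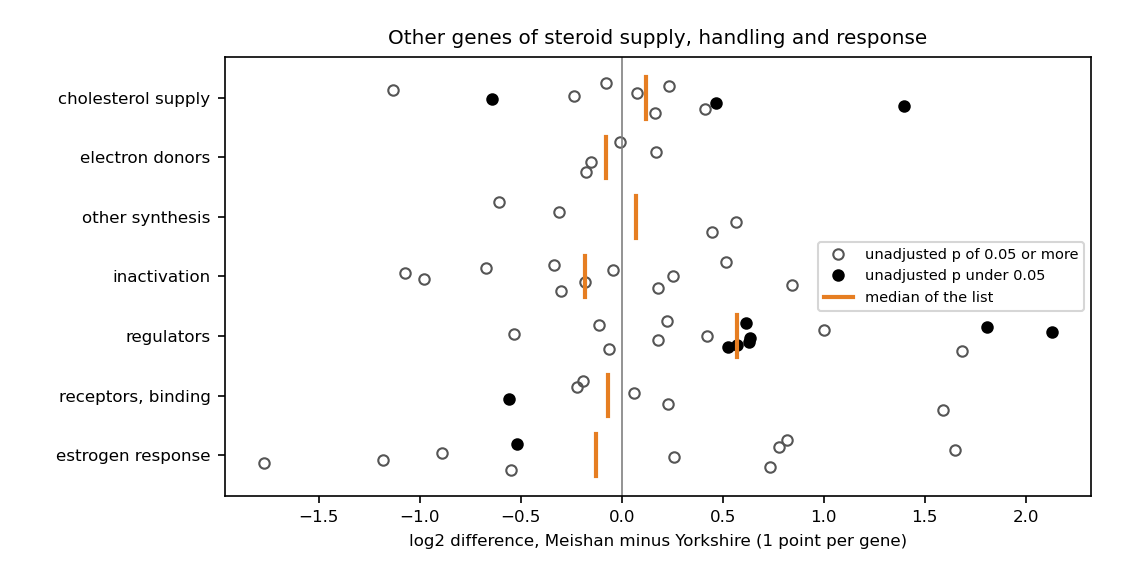
Log2 difference, Meishan minus Yorkshire, of the brightest probeset of each of the 60 measured pathway genes by list, with filled points for an unadjusted p under 0.05 and orange bars for the list medians. The regulators lie mostly to the right of 0 (median 0.57), the other lists lie around 0, and 0 of the genes shown were called.

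Among the tissue markers, all 11 measured epithelial genes reached 64 in every gilt, EPCAM at 8520 to 13770. This shows epithelium in the samples and was not a test of the tissue label. Summed stromal markers were 58053 to 62170 in Meishan and 46943 to 54547 in Yorkshire, and epithelial ones 74497 to 84902 and 74596 to 100661. The stromal sums are mostly VIM, DCN and LUM, and the differences of VIM and DCN, 0.47 and 0.27 toward Meishan, were 0.12 and 0.03 after quantile normalization. The 18 spike-in control probesets, for RNA of known amount added in the laboratory, were greater in Meishan by 1.00 on the log2 scale (p = 0.0286, exact permutation test, the smallest it can give), and the labels gave no hybridization batch. The part of this in the breed differences was not tested. The log2 ratio of GAPDH signal at the 3′ end to the 5′ end, a sign of RNA integrity, was 0.98 to 1.80 in Meishan and 1.04 to 1.80 in Yorkshire. For actin it was 0.67 to 1.76 in Meishan and 1.04 to 2.18 in Yorkshire. Both ratios were highest in Meishan 2 and Yorkshire 3 within their breeds.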

How the data were processed

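Endometrial RNA of 8 gilts was hybridized to the Affymetrix Porcine Genome Array, 1 array per gilt. The authors converted scans to probeset intensities with GCOS 1.2 and deposited these on a linear scale, already scaled to a like trimmed mean on every array, without detection calls. The study reported mixed models on natural logs. Here, log2 intensities were centred on each array's median over 23999 probesets, after leaving out 124 controls, and breeds were compared with limma 3.58.1 in R 4.3.3, with Benjamini-Hochberg adjustment over all probesets and a threshold of 0.1. The fit was tested on simulated data. The HSD11B1 to HSD11B2 difference and array measures were tested with exact permutation tests.

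Probesets were named from the platform annotation (10069 with 1 symbol, 198 with several, 13732 with none) or from the study's names, held in part for 2095 probesets, of which 1075 had no annotated gene and 251 differed. Named were all members, called pathway genes and otherwise up to 3 per list with the lowest p, defining markers, and the 5 genes most like CYP19A1. The members and lists were chosen with earlier results of these data known. Alternatives changed the scaling, dim signals, prior, adjustment, threshold, names, replicate block and gilts. The number of arrays limits the precision.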

Additional observations from a re-analysis of the deposited data

Results flagged for a closer look

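Among 34 breed groups of 4 gilts tested over the 17 member probesets, 3 held 1 gilt far from the others by Dixon's criterion, which chance meets in about 1 group in 20. At Ssc.7573.1.A1_at, named CYP19A1 by the study alone, Yorkshire 2 read 3.54 and the other Yorkshire gilts 34.1 to 47.0. At CYP11A1, Meishan 2 read 7.22 and the other Meishan gilts 26.2 to 32.4. At the HSD3B1 probeset Ssc.14393.2.S1_x_at, Yorkshire 3 read 59.8, just under the others at 67.8 to 68.5. All these values are near or under 64.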

How the results depend on the processing

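The call of Ssc.7568.1.A1_at was made under 16 of 17 alternatives, with log2 differences of 3.46 to 3.88 toward Yorkshire and adjusted p from 0.000172 to 0.124 (limma). It was lost with the replicate block, where 0 member, 0 pathway and 0 of all probesets were called. Deviations of same-numbered gilts from their breed means had correlations of -0.0561, 0.0890, 0.0010 and 0.0407. For 2 of the Meishan gilts the most alike Yorkshire gilt carried the same number. The labels do not say whether the numbers pair the gilts, and these correlations cannot exclude it. Called members numbered 2 after quantile normalization, with the filter on dim probesets and with signals floored at 32, 3 with an intensity trend in the prior, and 0 with names from the annotation alone, an alternative chosen after seeing the data. Without single gilts the count was 1 to 1. Called pathway probesets numbered 2 with no further scaling, in the unmoderated model and with Storey q-values, 6 with the floor, 0 at a threshold of 0.05, and 0 to 3 without single gilts. Calls over all probesets were 531 with the filter, 863 with the floor, 626 with the trend, 532 with Storey q-values, 60 at 0.05 and 72 to 205 without single gilts, beside 218. Members reaching the level in 2 gilts of a breed numbered 9 at 64, 14 at 32 and 5 at the higher level tried.

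Uncalled differences, Meishan minus Yorkshire, changed sign as follows. HSD17B4 went to 0.0108 with no scaling and 0.0599 after quantile normalization, which took CYP17A1 to -0.0320, STAR (279.1.S1_at) to -0.15 and CYP19A3 (4548.1.A1_at) to -0.0864. Without single gilts the values ran from -0.440 to 0.0741 for CYP19A1 (14484.1.A1_at), from -0.280 to 0.850 for CYP17A1, from -1.11 to 0.00847 and from -0.563 to 0.752 for the STAR probesets (279.1.S2_at and 279.1.S1_at), from -0.131 to 0.0394 for HSD17B4, from -0.189 to 0.378 and from -0.182 to 0.926 for CYP19A3 (4548.1.A1_at and 16184.1.S1_s_at), from -0.327 to 0.0617 for POR and from -0.314 to 0.0354 for FDXR. The within-gilt HSD11B1 to HSD11B2 difference between breeds ran from 0.886 to 1.49. The lowest Spearman coefficient of the 5 genes most like Ssc.7568.1.A1_at was 0.762. Causes were not tested. Most signals of STAR, CYP11A1, HSD3B1, CYP17A1, HSD17B1 and the annotated CYP19A1 probesets were under 64.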

Other observations

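Over the 8 gilts, the genes whose signal followed Ssc.7568.1.A1_at, the called probeset named CYP19A1 by the study, most closely, of 8292 candidate probesets of at least 64 in a breed, were GTF2F2, a general transcription factor (Pearson r 0.987), BPHL, a hydrolase (0.967), OGT, which adds N-acetylglucosamine to proteins (0.967), HUS1, a DNA damage checkpoint protein (0.966), and HNRNPH2, a splicing factor (0.965). The breeds form separate clusters for these genes, so r mostly restates that each also differed between breeds, and it is given with no test. Within breeds r was 0.76 for GTF2F2, 0.41 for BPHL, 0.37 for OGT, -0.12 for HUS1 and 0.09 for HNRNPH2.

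Among the genes listed for estrogen response, STC1, a calcium-regulating glycoprotein, varied between gilts more than between breeds. At Ssc.2464.1.S1_at it read 150, 11860, 9478 and 300 in Meishan and 13737, 6894, 18754 and 385 in Yorkshire. It was picked after its values were seen. Endothelial markers summed to 4853 to 4954 in Meishan and 5149 to 6873 in Yorkshire, blood markers to 1990 to 2222 and 1768 to 2234, muscle markers to 7573 to 19182 and 11792 to 20060, and endoderm markers to 32532 to 42607 and 28150 to 36669.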
